A study of Mus musculus with 6 samples.

Results

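Sialyltransferases are the Golgi enzymes that attach sialic acid to the ends of glycan chains. The 10 genes described here were taken by name from the 32285 genes of the count tables. They are 9 sialyltransferase genes (St3gal1, St3gal2, St3gal3, St3gal4, St3gal5, St3gal6, St6gal1, St6galnac3 and St6galnac4) and Cmas, whose product makes the activated sialic acid that all of them use. Each symbol matched 1 row of the tables, and all 10 genes had counts in every library. Their transcripts were counted as unique molecular identifiers (UMIs, each standing for 1 captured RNA molecule) in single cells, which were sorted into classes by marker genes. The main question was which cell classes carry which of these genes, and a further one was how the levels differed between mice given different agents.

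The cells came from 6 mice, 1 for each treatment, and each mouse gave 1 library. The study's methods describe female C57BL/6 mice, 6 to 8 weeks old, with no engineered allele of their own named. All of them, the control included, received KPCA cells in the ovarian bursa and were killed on day 30. KPCA is a mouse ovarian cancer line, proficient in homologous recombination, with alterations that include Trp53, Ccne1 and Akt2, so every tumor descends from the same line. The control mouse received solvent and rat IgG. The others received 2-deoxy-D-glucose (2DG, a glucose analog), 2FF (a fluorinated fucose analog used to block fucosylation, 2-fluoro-L-fucose in the methods and 2F-Peracetyl-Fucose in the labels), an antibody that blocks the checkpoint ligand PD-L1 (anti-PD-L1), or that antibody combined with 2DG or with 2FF. 2DG was injected every 2 days from day 9, 2FF was given by gavage every 2 days, and anti-PD-L1 was injected 2 times a week for 3 weeks after day 9. The tumor cells of the 2FF mice had also been kept in 2FF for 3 days before injection, so in those mice the exposure of the tumor cells and that of the host cannot be told apart. The methods describe tumors, whereas the labels of the samples call the tissue lymph node and the text of the series mentions aged next to young mice. In the gated classes, nearly all of them leukocytes, lymph node stroma genes reached at most 0.194 CPM (UMIs of the gene per 1e+06 UMIs of the class) of Ccl19 or Glycam1. Cells of no class, where stroma could lie, were left out, so the tissues cannot be told apart by this value. The gates found 55 keratin-positive cells without Ptprc.

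Sialic acid caps the glycans of nearly all vertebrate cell surfaces. Cells build it from a hexosamine, activate it with Cmas and transfer it in the Golgi, and each sialyltransferase prefers its own acceptor and linkage. The ST3Gal enzymes link it to the 3-position of galactose, ST6Gal1 to the 6-position of galactose on N-glycans, and the ST6GalNAc enzymes to N-acetylgalactosamine of O-glycans or glycolipids. In leukocytes the products serve as ligands of selectins, which catch cells at the vessel wall, and of Siglecs, which are mostly inhibitory receptors. They also cover the galactose ends that galectins bind.

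Of 57078 barcodes, 51633 passed the limits on genes and mitochondrial UMIs, and the libraries held 61859753 to 73885214 UMIs. Between 13.94% and 19.54% of the cells of a library met no class, and both these and the 3.74% to 5.84% that met several were left out. Classical monocytes were not counted among the several. T cells that matched neither the CD8, the CD4 nor the regulatory pattern, 61 to 347 per library, were also left out. The control library stood apart: it held 3361 of the 4845 neutrophils but 116 of the 7765 CD8 T cells and 17 of the 1177 NK cells. Pairs of libraries shared 16 to 34 barcodes. Genes taken as typical of 1 cell type were also counted in other gated classes, at levels that differed by gene. Trac, a T cell receptor gene used in no gate, lay at 390 to 624 CPM in CD8 T cells, CD4 T cells and regulatory T cells (Treg) but at 0 to 9.89 CPM in B cells and in every tested myeloid class, and at 12.5 to 15.3 CPM in NK cells. Ighd, a B cell gene used in no gate, lay at 234 to 333 CPM in B cells and at most at 5.23 CPM in any library of the other tested classes. Other such genes were less clean, with Ighm at 89.5 to 218 CPM in Treg and up to 145 CPM in macrophages, and Apoe, a macrophage gene, at 121 to 411 CPM in B cells and 68.6 to 264 CPM in neutrophils. Trbc2, another T cell receptor gene, lay at 101 to 176 CPM in NK cells. Il1r2, taken as a neutrophil gene, lay at 3043 to 5534 CPM there. It also lay at 941 to 1416 CPM in type 2 and 118 to 805 CPM in type 1 dendritic cells, and at 232 to 363 CPM in Treg. Whether such values are RNA of other cells was not tested.

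The 10 genes fell into a narrow and a wide set. Cmas and St6galnac4 were within 2-fold of the mean of the other classes everywhere, whereas the remaining 8 differed from it at least 2-fold in both directions. The ratio of the highest to the lowest class mean was 2.35 for Cmas and 3.12 for St6galnac4. It was 6.48 for St3gal1, 8.79 for St3gal2, 15.3 for St3gal4 and 29.4 for St3gal3. St3gal5, St3gal6, St6galnac3 and St6gal1 had the largest ratios, at 97.4, 137, 202 and 254. The lowest class means of St3gal5, St3gal6 and St6gal1 were only 1.51, 1.73 and 1.68 CPM, so their ratios rest on very low values. The order changed on the log2(CPM + 5) scale. There St6galnac3 had the widest range of class means, at 7.03, ahead of St6gal1 at 6.01. The range of St3gal3, 4.504, was slightly above that of St3gal5, 4.45.

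To test this within mice, UMIs were summed by class and library, and each of 12 classes was set against the mean of the others by edgeR's quasi-likelihood test with the library as a term. A gene was called when its Benjamini-Hochberg adjusted p was under 0.05 and its fold at least 2. All 10 genes passed the filter on low counts. They were chosen with earlier results of these data known, so this and the share called are not independent of that choice. Of 9 other sialyltransferase genes, counted in the pathway list below, 4 passed. Of the 120 pairs of gene and class, 24 were called higher and 24 lower, together 40% of the pairs, whereas 25.7% of the 141936 pairs of all genes were called (13.5% higher and 12.2% lower). The share of all 11828 tested genes that was called is given beside each count, as higher and then lower.

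Among the lymphoid classes, CD8 T cells had 2 of the 10 genes higher and 4 lower, against 12.8% and 15.2% of all genes. CD4 T cells other than Treg had 3 higher and 1 lower (12.5% and 12.8%), and Treg had 2 higher and 2 lower (13.2% and 12.4%). NK cells had 1 higher and 5 lower (10.5% and 15.1%). B cells had 3 higher and 2 lower (11.7% and 16.4%). NK cells thus had the largest number of lower calls of the 12 classes.

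Among the myeloid classes, neutrophils had 3 of the 10 genes higher and 2 lower (20.7% and 17.1% of all genes). These counts depend on scaling. When only library totals were used, St3gal4 was no longer called higher in neutrophils, and St3gal2 and St6gal1 were called lower. Classical monocytes had 1 higher and 1 lower (14.5% and 9.62%), and non-classical monocytes had 3 higher and 0 lower (12.9% and 11.0%). Macrophages had 0 higher and 2 lower (14.5% and 8.14%). Type 1 dendritic cells had 1 higher and 2 lower (11.8% and 9.27%), type 2 dendritic cells 3 higher and 2 lower (11.1% and 5.99%), and mature dendritic cells, which express Ccr7, 2 higher and 1 lower (15.5% and 13.2%). With 10 genes, 1 called gene is 10% of them, so most of these shares lie near that of all genes. The 5 lower genes of NK cells and the 4 of CD8 T cells lie furthest above it.

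**Figure D1:**
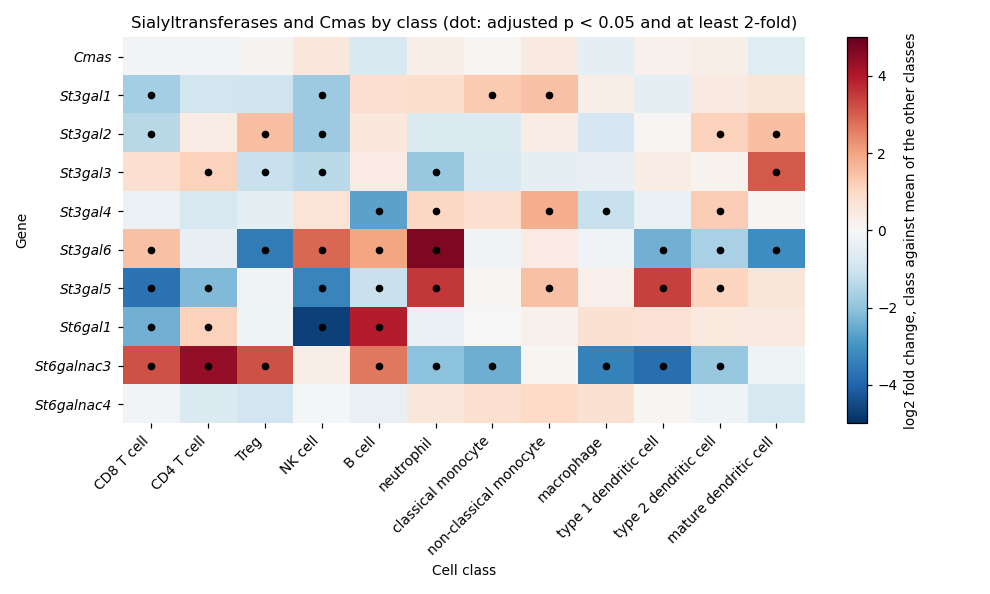
Fitted log2 fold of each gene (rows) in each of the 12 classes (columns) against the mean of the other classes, with colour for the size and direction and a dot for the 48 called pairs. St6gal1 in B cells, St3gal6 and St3gal5 in neutrophils, St6galnac3 in CD4 T cells and St3gal5 in type 1 dendritic cells stand out as higher, and Cmas and St6galnac4 carry no dot.

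Levels below are CPM of a class in a library, with mean ± SD over libraries. Where 6 values are listed, the first is the control library, followed by 2DG, 2FF, anti-PD-L1 alone, and then the combinations of anti-PD-L1 with 2DG and with 2FF. NK cells of the control library (17 cells) were too few and are left out, so their n is 5. For neighbours in the order of class means, an exact two-sided sign-flip permutation test over libraries was run on 110 pairs. Its smallest possible p is 0.03125 with 6 libraries, which came to 0.172 after adjustment, so 0 of the 110 passed and 20 had an unadjusted p under 0.05. In 28 pairs the upper class was higher in every library, and those are the neighbours named as separate below. The same libraries set the order of the classes, so the word separate is a description and not a test result. All other neighbours overlapped within at least 1 mouse.

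**Figure D2:**
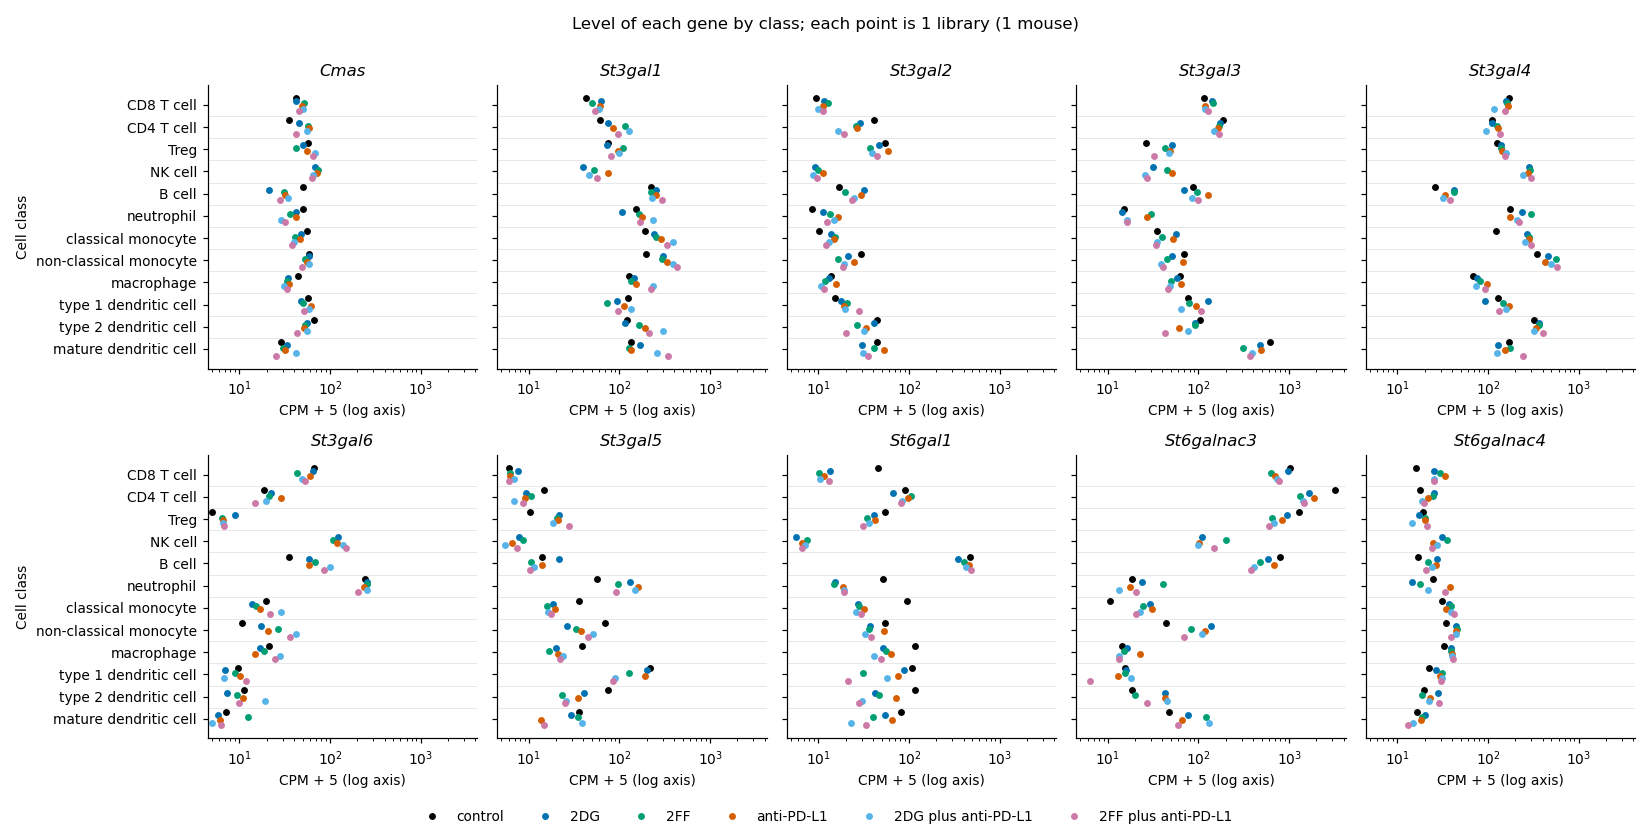
Level of each gene by class, with 1 panel per gene, the level as CPM + 5 on a log axis, and 1 point for each library. The points of Cmas and St6galnac4 form nearly level bands, whereas those of St6gal1 fall from 340 to 477 CPM in B cells to at most 2.45 CPM in NK cells.

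Cmas (ENSMUSG00000030282, chr6:142756686-142775714 on the plus strand, GRCm38) encodes the CMP-sialic acid synthetase. Its levels ran from a lowest of 58.2 through a median of 63.4 to a highest of 69.8 CPM in NK cells. In mature dendritic cells they ran from 20.5 through 26.2 to 37.7 CPM, and in B cells from 16.4 through 26.4 to 45.4 CPM. NK cells thus lay above both of these classes in every library. The class means were 63.9 ± 4.97 (SD, n = 5), 27.2 ± 5.85 (SD, n = 6) and 27.8 ± 9.66 CPM (SD, n = 6). No class passed 2-fold. The largest fitted differences on the log2 scale were −0.77 ± 0.12 (SE) in B cells (adjusted p = 2.0e-07), −0.61 ± 0.13 in mature dendritic cells (adjusted p = 5.3e-05) and 0.58 ± 0.10 in NK cells (adjusted p = 3.0e-06). Treg, non-classical monocytes and both types 1 and 2 of dendritic cells lay between 49.4 and 51.5 CPM on average and could not be put in order. Classical monocytes lay above neutrophils in all 6 libraries, by 0.23 on the log2(CPM + 5) scale. The fit, which scales differently from CPM, gave the reverse order. Its log2 folds were 0.33 ± 0.10 (SE) in neutrophils and 0.11 ± 0.08 in classical monocytes.

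ST3Gal1 and ST3Gal2 act on core 1 O-glycans, the galactose-bearing stubs of mucin-type chains, and ST3Gal2 also on gangliosides. St3gal1 (ENSMUSG00000013846, chr15:67102875-67176830, minus strand) had its highest class means in monocytes. In non-classical monocytes it lay at 189, 299.5, 286, 330, 380 and 426 CPM, and in classical monocytes at 186, 236, 246, 284, 389 and 331 CPM. In CD8 T cells the values were 38.2, 57.5, 44.96, 56.6, 54.7 and 48.9 CPM. Both monocyte classes lay above the CD8 T cells in every library with no overlap. The folds were 1.47 ± 0.11 in non-classical and 1.30 ± 0.10 in classical monocytes (log2 ± SE, adjusted p = 2.5e-19 and 7.1e-18). They were −1.69 ± 0.14 in CD8 T cells (adjusted p = 3.9e-17) and −1.80 ± 0.17 in NK cells (adjusted p = 2.3e-14). B cells followed with 241 ± 27.7 CPM (SD, n = 6) and stayed under 2-fold, at 0.83 ± 0.12. They were not separate from classical monocytes, which lay above them in 4 of 6 libraries. The lowest B cell value, 216 CPM, was above both monocyte classes of the control. Closer to 2-fold, but also not called, were Treg at −0.99 ± 0.14, CD4 T cells at −0.91 ± 0.13 and neutrophils at 0.89 ± 0.12. Without the 2FF library Treg were called lower, at −1.04. The last places were Treg at 83.8 ± 14.8, CD8 T cells at 50.2 ± 7.57 (both SD, n = 6) and NK cells at 49.1 ± 13.4 CPM (SD, n = 5). Treg lay above CD8 T cells in all 6 libraries, while CD8 T cells and NK cells were not separate.

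St3gal2 (ENSMUSG00000031749, chr8:110919922-110972480, plus strand) had its highest levels in Treg and in mature dendritic cells. In Treg it lay at 50.1, 41.5, 31.9, 53.6, 34.3 and 39.1 CPM and in mature dendritic cells at 39.5, 25.1, 35.9, 47.8, 25.8 and 30.03 CPM. CD8 T cells held 4.499, 6.56, 7.70, 6.34, 4.94 and 6.30 CPM, below every value of those 2 classes. The folds were 1.504 ± 0.13 in Treg (log2 ± SE, adjusted p = 1.0e-15), 1.51 ± 0.16 in mature dendritic cells (adjusted p = 8.4e-13) and 1.15 ± 0.15 in type 2 dendritic cells (adjusted p = 1.5e-09). They were −1.38 ± 0.14 in CD8 T cells (adjusted p = 7.3e-14) and −1.82 ± 0.25 in NK cells (adjusted p = 5.1e-09). The call in type 2 dendritic cells ended just under 2-fold without the control library (0.99) or without the 2DG library (0.997). CD8 T cells and Treg, both T cells, were thus called in opposite directions. A small RNA gene, Gm26132, overlaps St3gal2 on the same strand, so the reads of St3gal2 may not be strictly separable. How reads in overlapping genes were assigned is not given in the sources used here.

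ST3Gal3, ST3Gal4 and ST3Gal6 cap N-acetyllactosamine, the repeating galactose unit of N-glycans and extended O-glycans, and ST3Gal4 and ST3Gal6 are known for their part in sialyl Lewis x, the selectin ligand. St3gal3 (ENSMUSG00000028538, chr4:117932154-118134914, minus strand) was led by mature dendritic cells, the Ccr7-expressing cells that carry antigen to T cells. There it lay at 609, 475, 306, 489, 383 and 362 CPM. The next class, CD4 T cells, held 180, 168, 163, 159, 145 and 163 CPM, which does not overlap with those values. The fold in mature dendritic cells was 3.06 ± 0.10 (log2 ± SE, adjusted p = 2.0e-37), that is 8.34 times the log-scale mean of the other classes. CD4 T cells followed at 1.16 ± 0.11 (adjusted p = 4.3e-15), and lay above CD8 T cells in all 6 libraries by 0.40 on the log2(CPM + 5) scale. Treg differed from the other CD4 T cells, with 21.5 to 46.5 CPM and a fold of −1.11 ± 0.15 (adjusted p = 3.0e-09). That call ended at −0.87 when only library totals were used for scaling. NK cells (−1.36 ± 0.17, adjusted p = 4.6e-10) and neutrophils (−1.88 ± 0.18, adjusted p = 1.1e-14) were the lowest, and NK cells lay above neutrophils in all 5 libraries that had both.

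St3gal4 (ENSMUSG00000032038, chr9:35046576-35119268, minus strand) was highest in non-classical monocytes and type 2 dendritic cells. Non-classical monocytes held 339, 456, 562, 417, 491 and 565 CPM. Type 2 dendritic cells held 315, 356, 359, 332, 313 and 395 CPM, less than the non-classical monocytes of the same mouse in all 6. B cells were at the other end with 21.2, 37.3, 37.6, 28.6, 26.9 and 33.5 CPM, below every value of the other 11 classes. The folds were 1.82 ± 0.07 in non-classical monocytes (log2 ± SE, adjusted p = 2.2e-31), 1.23 ± 0.08 in type 2 dendritic cells (adjusted p = 6.8e-21), −1.11 ± 0.09 in macrophages (adjusted p = 1.5e-16) and −2.67 ± 0.13 in B cells (adjusted p = 1.1e-27). Neutrophils were called higher at 1.04 ± 0.08 (adjusted p = 1.4e-17), but the call ended at 0.47 with library totals, at 0.99 without the filter on low counts and at 0.96 without the 2FF library. At the lower end the order was the same in every library, with CD4 T cells at 113 ± 14.4 above macrophages at 76.9 ± 11.5 and these above B cells at 30.9 ± 6.46 CPM (SD, n = 6).

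St3gal6 (ENSMUSG00000022747, chr16:58468125-58524243, minus strand) was led by neutrophils, whose first contact with the vessel wall rests on selectins. The neutrophils held 237, 251, 251, 232, 252 and 199 CPM. NK cells, without the control library, held 118, 103, 114, 133 and 145 CPM, and lay below neutrophils and above B cells in all 5 libraries. The folds were 4.66 ± 0.13 in neutrophils (log2 ± SE, adjusted p = 1.7e-41), 2.88 ± 0.16 in NK cells (adjusted p = 2.2e-24), 1.96 ± 0.18 in B cells (adjusted p = 3.4e-15) and 1.47 ± 0.15 in CD8 T cells (adjusted p = 8.1e-14). The fitted neutrophil level was 25.3 times the mean of the other classes and was also higher when scaled by library totals. That mean is taken on the log scale and includes classes near the detection floor. CD4 T cells at 15.9 ± 4.61 CPM (SD, n = 6) were not called. Treg held 0, 3.88, 1.39, 1.69, 1.60 and 1.83 CPM, so this gene was near the detection floor there. The 3 dendritic classes were also low, at 6.45 ± 4.17 in type 2, 4.06 ± 1.88 in type 1 and 2.13 ± 2.66 CPM in mature dendritic cells (SD, n = 6). Their folds were −1.60 ± 0.31, −2.42 ± 0.39 and −3.10 ± 0.45, and that of Treg −3.50 ± 0.37 (adjusted p = 1.5e-05, 3.7e-07, 1.4e-08 and 1.4e-12). The last 2 rest on few UMIs and moved to −4.07 in mature dendritic cells without the 2FF library and to −4.12 in Treg without the 2DG library. St3gal6 overlaps Dcbld2 on the opposite strand.

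ST3Gal5 is the GM3 synthase, which adds the first sialic acid to lactosylceramide and so opens the ganglioside series. St3gal5 (ENSMUSG00000056091, chr6:72097592-72154571, plus strand) was held by type 1 dendritic cells and neutrophils. In type 1 dendritic cells, which cross-present antigen, it lay at 215, 196, 122, 188, 83.9 and 79.5 CPM. In neutrophils the values were 51.5, 125, 91.8, 157, 143 and 87.4 CPM, so these classes overlapped. CD8 T cells held 1.12, 2.54, 1.19, 1.25, 1.88 and 1.10 CPM, far below both. The folds were 3.55 ± 0.17 in neutrophils (log2 ± SE, adjusted p = 2.5e-28), 3.43 ± 0.17 in type 1 dendritic cells (adjusted p = 1.9e-26) and 1.47 ± 0.20 in non-classical monocytes (adjusted p = 4.7e-09). Type 2 dendritic cells were called at 1.09 ± 0.23 (adjusted p = 5.7e-05), a call that ended at 0.87 without the control library. The lymphoid classes other than Treg were called lower, with −1.13 ± 0.35 in B cells, −2.22 ± 0.30 in CD4 T cells, −3.29 ± 0.49 in NK cells and −3.67 ± 0.29 in CD8 T cells (adjusted p = 3.7e-03, 2.0e-09, 3.2e-08 and 1.0e-17). The NK cells held 13 UMIs of it over all libraries, so this gene was near the detection floor there. Treg were the exception with 14.9 ± 5.58 CPM (SD, n = 6) and −0.18 ± 0.27 (adjusted p = 0.60), which did not pass. Gm29438 overlaps St3gal5 on the same strand.

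ST6Gal1 makes the 6-linked sialic acid of N-glycans, the ligand that CD22, a Siglec of B cells, binds. St6gal1 (ENSMUSG00000022885, chr16:23224740-23360350, plus strand) lay at 463, 340, 405, 455, 418 and 477 CPM in B cells. CD4 T cells came next with 84.5, 62.2, 99.9, 92.1, 79.0 and 77.1 CPM. NK cells, without the control library, held 0.697, 2.45, 1.56, 2.11 and 1.57 CPM. B cells lay above every value of every other tested class, and NK cells below every one. The NK cells held 11 UMIs of it over all libraries, so this gene was near the detection floor there. The folds were 3.93 ± 0.14 in B cells (log2 ± SE, adjusted p = 2.2e-35), 1.17 ± 0.17 in CD4 T cells (adjusted p = 8.6e-09), −2.39 ± 0.24 in CD8 T cells (adjusted p = 2.0e-13) and −4.68 ± 0.46 in NK cells (adjusted p = 1.2e-13). The fitted B cell level was 15.3 times the log-scale mean of the other classes. In CD4 T cells the call ended at 0.83 when 1 more marker was asked of each class. From macrophages at 58.1 ± 27.1 CPM down to classical monocytes at 34.6 ± 27.2 CPM (SD, n = 6), 7 classes followed each other with no separate neighbours. Neutrophils, CD8 T cells and NK cells then formed a descending order that held in every library with the classes.

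ST6GalNAc3 and ST6GalNAc4 add a further sialic acid to already sialylated core 1 O-glycans and, for ST6GalNAc3, to gangliosides. St6galnac3 (ENSMUSG00000052544, chr3:153198266-153725174, minus strand) was highest in T and B lymphocytes. CD4 T cells held 3193, 1635, 1306, 1886, 1421 and 1455 CPM, Treg 1266, 953, 640, 837, 671 and 594 CPM, and CD8 T cells 1016, 973, 627, 702, 729 and 775 CPM. CD4 T cells lay above Treg in all 6 libraries, whereas Treg and CD8 T cells overlapped. Macrophages held 9.50, 11.2, 9.97, 17.6, 8.24 and 8.27 CPM, which is below any lymphocyte class. The folds were 4.39 ± 0.13 in CD4 T cells (log2 ± SE, adjusted p = 3.3e-39), 3.20 ± 0.14 in CD8 T cells (adjusted p = 1.5e-30), 3.17 ± 0.14 in Treg (adjusted p = 2.5e-29) and 2.64 ± 0.15 in B cells (adjusted p = 5.8e-24). NK cells were not called, with 126 ± 43.3 CPM (SD, n = 5) and 0.33 ± 0.21 (adjusted p = 0.18), and they lay below B cells in all 5 libraries. With 1 more marker asked of each class the direction in NK cells turned and they were called lower, at −1.13 ± 0.27 (adjusted p = 2.7e-04). Called lower were type 1 dendritic cells at −3.76 ± 0.34, macrophages at −3.38 ± 0.23, classical monocytes at −2.45 ± 0.22, neutrophils at −2.05 ± 0.26 and type 2 dendritic cells at −1.89 ± 0.25 (adjusted p = 4.0e-15, 3.2e-20, 1.5e-15, 2.4e-10 and 2.5e-09). Mature dendritic cells (78.8 ± 34.5 CPM) lay above type 2 dendritic cells (27.7 ± 12.3 CPM, both SD, n = 6) in all 6 libraries. The gene spans 527 kb, and 4 other annotated genes lie on the same strand within its bounds. Part of its reads may therefore not be strictly separable from theirs. Whether reads in introns were counted is not given in the sources used here.

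St6galnac4 (ENSMUSG00000079442, chr2:32587095-32599698, plus strand) had its highest mean in non-classical monocytes, at 29.1, 39.6, 40.3, 40.0, 39.7 and 33.7 CPM. Mature dendritic cells held 11.4, 15.04, 13.7, 13.0, 9.92 and 8.19 CPM, lower in every library. No class passed 2-fold. Non-classical monocytes came closest at 0.99 ± 0.11 (log2 ± SE, adjusted p = 9.1e-12), followed by Treg at −0.96 ± 0.15 (adjusted p = 1.4e-07), and non-classical monocytes were called at 1.005 with a mitochondrial limit of 10% and at 1.07 with the stricter gate. Macrophages at 33.8 ± 3.26 and classical monocytes at 32.1 ± 4.08 CPM (SD, n = 6) were not separate from each other, and classical monocytes lay above type 1 dendritic cells in all 6 libraries.

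For each gene the genes with the most similar pattern, at most 3, were taken by Pearson's r of log2(CPM + 5) over the 75 sums of class and library, among 9302 candidate genes. These sums share libraries, classes and depth, so r is only a description. The closest partner of any member was Cd2 for St6galnac3 (r = 0.905), a T cell adhesion molecule, followed by Pitpnm2 (0.9005) and Il27ra (0.899). Mctp1 (0.865), Cmtm6 (0.833) and Mapk13 (0.814) were nearest to St3gal5. H3f3a (0.814) and Atp6v0a1 (0.797) were among those nearest to St3gal1, and Kdm4a (0.813), Sinhcaf (0.812) and Sepsecs (0.801) to St3gal3. Sdhaf1 (0.802), Vav2 (0.768) and Bmyc (0.748) followed St3gal2. For St3gal4 these were Hpcal1 (0.784), Lrrfip1 (0.766) and Slk (0.724), and for St3gal6 Pip5k1b (0.782), Suco (0.775) and Mirt1 (0.774). St6gal1 had Usp6nl (0.775), Mtss1 (0.773) and Pikfyve (0.750) nearest, and St6galnac4 had Cndp2 (0.769), B4galt5 (0.758), a galactosyltransferase, and Man2a1 (0.744), a mannosidase of N-glycan processing. Cmas had Slc9a9 (0.763), Tex2 (0.712) and Rps6ka1 (0.684). Among the members themselves the lowest r was −0.64, for St3gal2 with St3gal6.

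Within CD8 T cells, those with a UMI of Tcf7, the transcription factor of naive and stem-like T cells, and none of Havcr2 were set against those with Havcr2, which encodes the exhaustion marker TIM-3, and no Tcf7. The control library had 19 Tcf7-positive cells and was left out of the test, which ran on 5 libraries. St6gal1 separated the subsets. Tcf7-positive cells held 40.1, 35.4, 39.6, 30.8 and 51.3 CPM of it in the 5 treated libraries, in the order given above. Havcr2-positive cells of the same libraries held 1.06, 2.24, 2.62, 2.87 and 2.48 CPM, with no overlap. The difference was 4.13 ± 0.24 on the log2 scale, or 17.5-fold (edgeR, adjusted p = 9.8e-10). In the control, which did not enter the test, the values were 195 and 7.15 CPM.

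St3gal6 was the other gene called between these subsets, at 84.7, 83.3, 78.1, 56.5 and 82.0 CPM in Tcf7-positive and 47.9, 29.2, 45.7, 36.5 and 39.7 CPM in Havcr2-positive cells. The values did not overlap, and the difference was 1.01 ± 0.12 on the log2 scale (edgeR, adjusted p = 8.5e-06). It fell just short of 2-fold with library totals (0.96), without the low-count filter (0.93), without the 2FF library (0.89) or without the 2FF plus anti-PD-L1 library (0.999). These are 2 higher and 0 lower calls among the 9 genes that passed the filter here (all but St3gal5), where 3.71% of all genes were called higher and 3.44% lower. St3gal3 went the other way at −0.92 ± 0.09 (adjusted p = 3.9e-07), with 55.4 to 78.7 CPM in Tcf7-positive and 123 to 152 CPM in Havcr2-positive cells of the tested libraries, but stayed under 2-fold. St3gal4 (−0.34 ± 0.10, adjusted p = 0.014) and St3gal1 (0.34 ± 0.11, adjusted p = 0.025) differed by less. St6galnac3 did not pass the test, at 0.00 ± 0.10 with an adjusted p of 0.98, and neither did St6galnac4, Cmas and St3gal2.

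**Figure D3:**
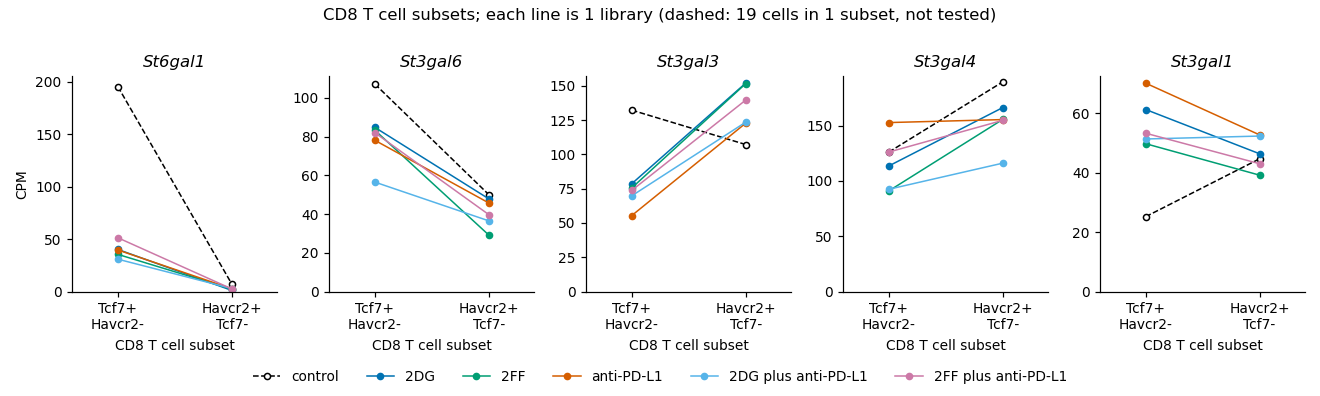
CPM of St6gal1, St3gal6, St3gal3, St3gal4 and St3gal1 in Tcf7-positive and Havcr2-positive CD8 T cells, with a line for each library and the control, which was not tested, dashed with open points. All lines of St6gal1 and St3gal6 are higher on the Tcf7 side, and the 5 tested lines of St3gal3 are lower there.

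Within macrophages, cells with UMIs of both Spp1 and Gpnmb were set against cells with neither. Only the control (70 cells) and 2FF (23 cells) libraries had enough of the former. By edgeR's test 0 of the 10 genes were called, against 2.91% higher and 0.815% lower of all genes, and DESeq2 also called 0. At an unadjusted p under 0.05 there were 2, St6galnac3 and St6gal1. St6galnac3 lay at 1.25 and 7.72 CPM in the Spp1 and Gpnmb cells and at 32.4 and 12.2 CPM in the others (−2.84 ± 0.84 log2, adjusted p = 0.086). It was called with library totals (−3.06), without the filter (−2.91) and with a mitochondrial limit of 10% (−2.82). St6gal1 lay at 111 and 104 CPM against 80.5 and 45.8 CPM (0.97 ± 0.30 log2, adjusted p = 0.099).

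Plasma cells, plasmacytoid dendritic cells and keratin-positive cells were too rare for the test and are given as UMIs pooled over libraries, with exact 95% Poisson intervals that cover counting error only. The 49 plasma cells, the antibody-secreting descendants of B cells, held 232 CPM of St6gal1 (201 to 267), 61.8 of St6galnac3 (46.3 to 80.8) and 1.17 of St3gal5 (0.0295 to 6.50). In the 108 plasmacytoid dendritic cells St3gal4 lay at 161 CPM (136 to 188), St3gal1 at 127 (105 to 152), St3gal3 at 90.5 (72.3 to 112) and Cmas at 69.2 (53.4 to 88.2).

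The 55 keratin-positive cells held UMIs of all 10 genes. Their gate asked for at least 2 of Krt7, Krt8, Krt18, Krt19 and Epcam and for no Ptprc. Their 878 CPM of Krt8 and 1171 CPM of Krt18 are thus no independent check of what they are. Of genes outside the gate, Msln had 19 UMIs and Wt1 had 1 UMI in these cells. St3gal4 lay at 243 CPM (206 to 285), St3gal1 at 96.1 (73.3 to 124), St6gal1 at 59.3 (41.7 to 81.7) and St3gal6 at 8.01 (2.60 to 18.7). St3gal5 lay at 52.9 CPM (36.4 to 74.2) when pooled, but at 155 CPM in the 2DG library and at 0 in the control, 2FF and anti-PD-L1 libraries. The keratin-positive cells of these last libraries held 1852, 105542 and 50720 UMIs of all genes. A 0 in the control or with anti-PD-L1 therefore says little. The number of keratin-positive cells ranged from 2 to 20 per library, so no value per treatment is compared.

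With 1 mouse for each treatment, a difference between treatments has no replicate check, no test was made, and mouse, library and treatment cannot be told apart. For every class with at least 20 cells in both libraries, the ratio of CPM + 5 was taken for genes with at least 50 UMIs in the pair, and 1.5-fold either way was counted. The 3 single agents share the control library and the 2 combinations share the anti-PD-L1 library, so their counts are not independent. Against control, 2DG had 11 higher and 12 lower of 90 pairs of gene and class, where 9.20% of the pairs of all genes were higher and 7.77% lower. 2FF had 15 higher and 23 lower of 88 pairs (11.4% and 8.56%), and anti-PD-L1 had 18 higher and 13 lower of 89 (10.1% and 7.81%). Against anti-PD-L1 alone, 2DG plus anti-PD-L1 had 9 higher and 12 lower of 97 pairs (4.74% and 5.50%), and 2FF plus anti-PD-L1 had 4 higher and 17 lower of 98 (3.94% and 4.17%). The 23 lower pairs of 2FF and the 17 of its combination lie furthest above those shares, and the former hold 7 classes of St6gal1 and 5 of St3gal5.

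St6gal1 was highest in the control library in 9 of the 11 classes that all 6 libraries had. Classical monocytes held 89.9 CPM in the control and 22.4, 23.3, 26.6, 21.0 and 24.4 CPM in the other libraries, in the order given above. CD8 T cells held 40.5 CPM against 8.36, 5.11, 6.70, 5.37 and 8.01 CPM, neutrophils 46.7 against 10.1, 9.89, 13.8, 14.03 and 14.004 CPM, and macrophages 112 against 47.4, 50.4, 58.6, 36.6 and 44.3 CPM. In each of these classes the control thus lay above all 5 treated libraries, which still ranged from 36.6 to 58.6 CPM in macrophages. In the dendritic classes, given below, the treated libraries also differed from each other. Relative to control, the ratio in classical monocytes was 0.249 for 2DG (95% interval 0.210 to 0.292), 0.259 for 2FF (0.224 to 0.297) and 0.295 for anti-PD-L1 (0.261 to 0.334), where intervals of such ratios are exact (Clopper-Pearson) and cover counting error only. In all, 6 classes were past 1.5-fold lower with 2DG, 7 with 2FF and 5 with anti-PD-L1, and 0 were higher. B cells (463 CPM in the control, 340 to 477 in the others) and CD4 T cells (84.5, and 62.2 to 99.9) did not show it. Whether RNA of B or plasma cells has a part in the difference in classical monocytes was not tested. The control classical monocytes held 0.112 CPM of Ighd, 0.390 of Cd79a and 0.167 of Ms4a1. Ighm, which is abundant in B and plasma cells, lay at 5.63 CPM there against 19.9 to 41.0 CPM in the treated libraries. In macrophages, by contrast, it lay at 145 CPM in the control against 11.9 to 30.4 CPM and so moved with St6gal1, and its part in that result was not tested. The CD8 T cells of the control rest on 116 cells and 36 UMIs of St6gal1, which came from 11 cells. Of these UMIs 31 were in the 19 Tcf7-positive cells and 4 in the 62 Havcr2-positive cells.

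Against anti-PD-L1 alone, St6gal1 was lower past 1.5-fold in 4 classes with 2DG plus anti-PD-L1 and in 3 with 2FF plus anti-PD-L1. Type 2 dendritic cells went from 66.4 to 25.3 and 23.2 CPM, ratios of 0.382 (0.241 to 0.585) and 0.349 (0.212 to 0.554). Mature dendritic cells went from 59.8 to 17.9 and 28.7 CPM, ratios of 0.299 (0.130 to 0.609) and 0.479 (0.275 to 0.806). Type 1 dendritic cells held 70.6 CPM with anti-PD-L1 alone, 52.2 with 2DG added and 16.2 with 2FF added. Type 2 and mature dendritic cells thus had less St6gal1 past 1.5-fold in both combination libraries, and type 1 dendritic cells with 2FF added. The values rest on 9 to 99 UMIs each. The difference in type 1 dendritic cells with 2DG added stayed under 1.5-fold, and no direction is drawn from it.

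**Figure D4:**
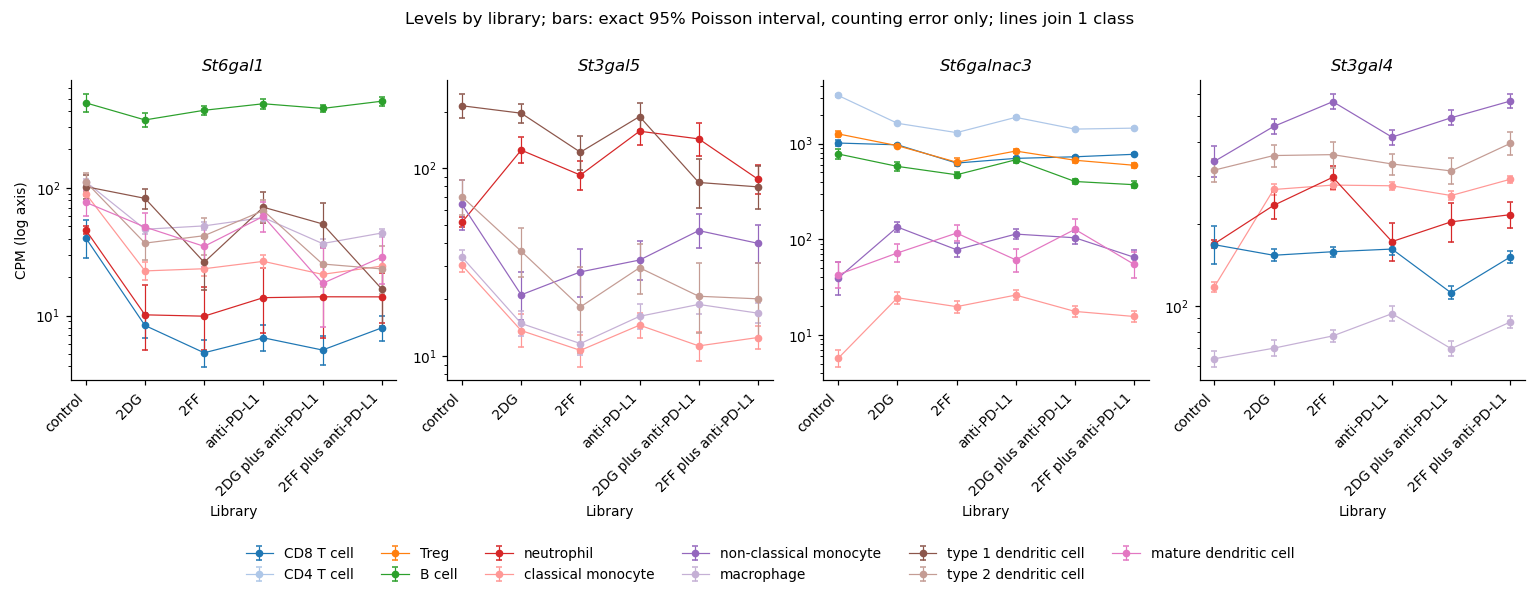
CPM of St6gal1, St3gal5, St6galnac3 and St3gal4 in the 6 libraries on a log axis, with a line for each class and exact 95% Poisson intervals. St6gal1 lies lower in all 5 treated libraries than in the control in classical monocytes, macrophages, neutrophils and CD8 T cells, and St3gal4 of classical monocytes lies at 117 CPM in the control and at 254 to 292 CPM in the others.

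St3gal5 was split by class between the control and the treated libraries. Classical monocytes held 30.4 CPM in the control and 13.7, 10.7 and 14.6 CPM with 2DG, 2FF and anti-PD-L1. Macrophages held 33.6 against 14.9, 11.7 and 16.3 CPM, non-classical monocytes 64.1 against 21.2, 28.0 and 32.4 CPM, and type 2 dendritic cells 70.4 against 36.1, 18.2 and 29.5 CPM. Neutrophils went the other way, from 51.5 to 125, 91.8 and 157 CPM. The neutrophil ratios were 2.42 (2.04 to 2.86), 1.78 (1.47 to 2.14) and 3.05 (2.55 to 3.63), and those of macrophages 0.444 (0.370 to 0.529), 0.347 (0.292 to 0.410) and 0.484 (0.402 to 0.580). The same gene was thus past 1.5-fold in both directions in the same pairs of libraries. In type 1 dendritic cells it was lower in both combinations, at 188 CPM with anti-PD-L1 alone and 83.9 and 79.5 CPM with 2DG or 2FF added. Of the 4845 neutrophils 3361 were of the control, and the part that this difference in number has in the result was not tested.

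St6galnac3 was lower in CD4 T cells of every treated library, at 3193 CPM in the control and 1635, 1306 and 1886 CPM with the 3 single agents. The ratios were 0.512 (0.491 to 0.534), 0.409 (0.390 to 0.429) and 0.591 (0.565 to 0.617). In Treg it went from 1266 to 953, 640 and 837 CPM. Monocytes went the other way. Classical monocytes held 5.69 CPM in the control against 24.4, 19.7 and 26.1 CPM, and non-classical monocytes 39.3 against 134, 77.7 and 113 CPM. Trac of T cells moved with it in classical monocytes, from 0.558 CPM in the control to 3.04, 3.44 and 4.67 CPM, and in non-classical monocytes from 0 to 0.901, 2.92 and 3.55 CPM. The part of T cell RNA in this difference was not tested. In B cells St6galnac3 lay at 679 CPM with anti-PD-L1 alone and at 402 and 372 CPM with 2DG or 2FF added.

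St3gal4 had its largest difference in classical monocytes, which held 117 CPM in the control and 267, 278, 276, 254 and 292 CPM in the other libraries. The ratios to control were 2.28 (2.14 to 2.42), 2.36 (2.23 to 2.50) and 2.35 (2.22 to 2.48) for 2DG, 2FF and anti-PD-L1, on at least 1937 UMIs per library. The median log2 ratio of all genes in this class was 0.15, 0.13 and 0.14, and that of St3gal4 was 1.15, 1.21 and 1.20. A median gives the centre of the ratios and not their spread, so it does not tell how many genes differed as much. With 2FF it was also higher in non-classical monocytes (339 to 562 CPM) and neutrophils (169 to 297 CPM), and with 2FF plus anti-PD-L1 in mature dendritic cells (149 to 240 CPM).

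St3gal1 was past 1.5-fold higher than with anti-PD-L1 alone in 4 of 13 classes with 2DG added and in 1 of 12 with 2FF added. It was lower in NK cells with 2DG added (70.3 to 41.6 CPM), and in CD8 T cells it lay at 56.6, 54.7 and 48.9 CPM. Mature dendritic cells held 130 CPM with anti-PD-L1 and 254 and 341 CPM with 2DG or 2FF added, ratios of 1.95 (1.51 to 2.52) and 2.62 (2.10 to 3.28). Macrophages held 149, 231 and 217 CPM, of which the ratio with 2DG, 1.55 (1.46 to 1.65), was past 1.5-fold on the CPM + 5 scale. St3gal6 showed the same order in macrophages, with 9.84, 22.8 and 19.5 CPM, and in non-classical monocytes, with 15.5, 37.3 and 31.1 CPM. In the macrophages the ratios were 2.32 (1.84 to 2.93) and 1.99 (1.58 to 2.52).

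St3gal3 in mature dendritic cells, its leading class, was 609 CPM in the control and 306 CPM with 2FF (ratio 0.503, 0.435 to 0.580), while 2DG (475 CPM) and anti-PD-L1 (489 CPM) stayed within 1.5-fold. In the NK cells it went from 46.1 CPM with anti-PD-L1 to 21.1 and 22.0 CPM in the combinations. St3gal2 of CD4 T cells lay at 35.9 CPM in the control and at 21.3 and 22.0 CPM with 2FF and anti-PD-L1, on 37 to 61 UMIs. St6galnac4 was past 1.5-fold in CD8 T cells with all 3 single agents (11.2 CPM in the control, and 20.4, 24.4 and 28.6 CPM), but the control value rests on 10 UMIs. Cmas stayed within 1.5-fold in every class with 2DG and in both combinations. With 2FF and anti-PD-L1 it was higher in CD4 T cells (30.1 CPM in the control, then 51.7 and 53.1 CPM), and with 2FF lower in B cells (45.4 to 26.3 CPM, on 15 and 37 UMIs).

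The wider sialic acid pathway was described by a list of 31 genes, of which 22 passed the filter in the class comparison. Of their 264 pairs with a class, 47 were called higher and 41 lower, together 33.3%, beside 13.5% higher and 12.2% lower (25.7% in all) over the pairs of all genes. The supply of sialic acid had 10 higher and 12 lower calls from 6 of 8 genes, its modification 6 and 6 from 3 of 3 genes, and the sialidases 6 and 4 from 2 of 4 genes. The genes counted are those that passed the filter. Of the modification calls, Cmah alone gave 6 higher and 5 lower, Siae 1 lower and Casd1 0. The other sialyltransferases had 11 and 7 from 4 of 9 genes, and enzymes that make or compete for the acceptors 14 and 12 from 7 of 7 genes. The pairs with the greatest folds were those of Cmah, which converts the N-acetyl to the N-glycolyl form of sialic acid, of St8sia6 and St8sia1, whose products add sialic acid to sialic acid, and of the sialidase Neu3. Cmah was higher in B cells (360 CPM, 5.87 ± 0.15 log2) and in neutrophils (77.2 CPM, 4.08 ± 0.20). It was lower in type 2 (0.151 CPM, −6.11 ± 0.93) and mature dendritic cells (0.712 CPM, −3.61 ± 0.9999), where it was close to 0 and the fitted fold is imprecise. B cells also had St8sia6 at 76.2 CPM (5.49 ± 0.26), whereas NK cells held no UMI of it in the tested libraries. St8sia1, the GD3 synthase that works on the product of ST3Gal5, was higher in mature dendritic cells (69.5 CPM, 3.69 ± 0.20) and lower in NK cells (0.787 CPM, −3.96 ± 0.63) and B cells (0.561 CPM, −3.59 ± 0.61). Neu3 was higher in Treg (13.5 CPM, 3.76 ± 0.24).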

How the data were processed

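The deposited values are whole-number UMI counts for each gene in each cell, which the authors left unnormalized and made, according to the methods and file headers, with Cell Ranger 7.0.0 on mm10 from 10x 3′ libraries (the submitters' processing notes name Cell Ranger 3.1.0). Cells with at least 250 genes and at most 5% mitochondrial UMIs were kept. A cell joined a class when at least 3 of the class's markers had a UMI and it met no other class. T cells and keratin-positive cells needed 2 markers, the latter without Ptprc. The classical monocyte gate did not count as another class, so cells of other classes could also meet it. Classical monocytes were taken from cells that met no other class, type 1 dendritic cells needed Xcr1 or Clec9a, and T cells were split by Cd8a or Cd8b1, Cd4 and Foxp3. These numbers were set after the distributions of the markers, but not of the described genes, had been seen. No doublet caller was run, and cells of several classes were left out. Counts were summed by class and library, sums under 20 cells were dropped, and CPM is per 1e+06 UMIs of the sum.

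Classes were compared with edgeR 4.0.16 (R 4.3.3; TMM factors, filterByExpr, quasi-likelihood test, library as a term), each against the mean of the others. Each called difference needed an adjusted p under 0.05 over all genes tested and a fold of 2. The mouse is the replicate. Treatments, with 1 mouse each, were compared by ratios of CPM + 5 without a test. The scripts were tested on simulated data. DESeq2 1.42.0, other scalings, filters and gates, and leaving out each library served as alternatives. The genes and lists were chosen with earlier results of these data known. All 10 genes were named in every class. Of the pathway list, values were given in the order of the size of the fold, for at most 10 pairs. For each gene the 3 most similar genes were named (1 of them is not reported here), leaving out gate markers and genes without a symbol or with fewer than 20 CPM in every class. Between treatments, pairs past 1.5-fold with UMIs from at least 10 cells could be named. Coordinates are those of GRCm38 with GENCODE M21. The total UMIs of a class in a library set the precision of its values, and plain counting intervals are at 95%.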

Additional observations from a re-analysis of the deposited data

How the results depend on the processing

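The number of called pairs of gene and class, 48, lay between 47 and 51 under other normalizations, no filter, DESeq2, no library term, the looser mitochondrial limit and the stricter gate, and between 46 and 48 when each library was left out in turn. No call reversed, but St6galnac3 in NK cells, not called, turned from 0.33 to a call at −1.13 with the stricter gate. That gate also added St3gal4 (−1.29) and St6gal1 (1.38) in type 1 dendritic cells and St6galnac4 (1.07) in non-classical monocytes. Library totals added St3gal2 (−1.34) and St6gal1 (−1.02) as lower in neutrophils and St3gal3 (1.002) as higher in CD8 T cells. Between the CD8 T cell subsets the 2 calls became 1 with library totals and 1 without the low-count filter, and ranged from 1 to 2 when libraries were left out. Between the macrophage subsets the count of 0 became 1 with library totals, 1 without the filter and 1 with a mitochondrial limit of 10%. Leaving out a library and the stricter gate could not be run there, because 1 library would remain. Scaling by library totals moved the median log2 fold of all genes by −0.61 in neutrophils, 0.27 in CD4 T cells, 0.25 in Treg, 0.18 in CD8 T cells, 0.14 in NK cells, −0.17 in classical and −0.11 in non-classical monocytes and −0.20 in the macrophage subsets. The share of calls that were higher went with it from 54.6% to 26.9% in neutrophils, from 49.3% to 62.4% in CD4 T cells, from 51.7% to 63.9% in Treg and from 78.1% to 53.3% in the macrophage subsets. The 134 pairs past 1.5-fold between treatments were 120 to 158 in number under the alternatives, but not all the same pairs. Of the 134, 114 stayed past it with each cell weighted equally, 120 with TMM factors, 126 centred on the median and 131 with the looser mitochondrial limit, and 94 of the 122 that could be compared did with the stricter gate. For St6galnac3 in macrophages with anti-PD-L1 the difference reversed, to −0.38, when each cell was weighted equally, and the cause was not tested. No paired analysis was possible because each treatment has 1 mouse.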
